A study of Mus musculus with 6 samples.

Results

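The genes described here write, read and erase histone acetylation: acetyltransferases and their coactivators, deacetylases and sirtuins, bromodomain, YEATS and ING proteins, and the corepressors and scaffold that carry them. They were taken from a list of 51 symbols, and for each the brightest probe set annotated to that symbol alone was used. 50 of the 51 had one and were measured, among 22180 genes tested in all; the corepressor gene Ncor1 had no such probe set and was not analysed here. The rule for the list uses no change between the groups, though the list was drawn up with earlier results of these data known. The choice of probe set uses the mean over all arrays of both groups.

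Expression was measured on 3 arrays of knockout cerebellum (Math1Cre::CrebbpFl/Fl, with both Crebbp alleles floxed) and 3 arrays of wild-type cerebellum (Math1Cre, with wild-type Crebbp), all at postnatal day 7. Both groups carry the Math1Cre transgene. Math1 drives Cre in granule neuron precursors and some other cells of the hindbrain, whereas RNA came from the whole tissue, so it includes RNA of cells outside this lineage. In such bulk tissue, fewer cells of a type and less RNA per cell cannot be told apart.

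Acetylation of lysines in histone tails loosens chromatin and marks active promoters and enhancers. Acetyltransferases such as CREBBP and its relative EP300 add the mark, zinc-dependent deacetylases (HDACs) and NAD-dependent sirtuins remove it, and bromodomain and YEATS proteins bind it. Most of these enzymes work in large complexes, so their partner subunits are given as well. In the brain, deacetylases of class IIa move between cytoplasm and nucleus with calcium signals, and class I enzymes take part in the passage from dividing precursor to neuron.

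Crebbp itself was lower on each of the knockout arrays. Its log2 values were 11.46, 11.42 and 11.32 in knockout and 11.96, 11.99 and 11.90 in wild type. The change was -0.56 (SE 0.05, limma adjusted p = 0.000354). It is not given which part of the gene the probe set covers. Ep300 had values of 10.75, 10.72 and 10.69 in knockout and 10.66, 10.69 and 10.57 in wild type, a change of 0.08 that did not pass (adjusted p = 0.413, 95% confidence interval -0.03 to 0.18).

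Markers of several cell types differed between the groups as well. The mean log2 value of 10 granule neuron markers was 9.77 to 9.94 on the knockout arrays and 10.36 to 10.57 on the wild-type arrays, with 7 of the 10 fallen. That of 9 choroid plexus markers was 9.04, 7.34 and 9.60 in knockout and 8.0, 7.28 and 7.34 in wild type, with 0 past the adjusted threshold but 6 at an unadjusted p under 0.05 in limma. That of 7 oligodendrocyte markers was 9.01 to 9.61 in knockout and 9.64 to 9.75 in wild type, with 1 fallen and 6 at an unadjusted p under 0.05 in limma. That of 6 meningeal markers was 8.84 to 9.28 in knockout and 8.63 to 8.77 in wild type, with 0 past the adjusted threshold and 5 at an unadjusted p under 0.05 in limma. That of 8 astroglial markers was 11.40 to 11.52 in knockout and 11.30 to 11.35 in wild type, with 2 risen (Gfap and Gdf10), and that of 4 forebrain markers was 6.27 to 6.47 in knockout and 6.55 to 6.68 in wild type, with 1 fallen (Neurod6). Of 10 markers of granule precursors, in which Math1 drives Cre, 2 rose (Atoh1 and Ccnd1) and 2 fell (Zic1 and Pax6), with a median change of 0.02. Their mean was 10.52 to 10.62 in knockout and 10.51 to 10.56 in wild type. Of 7 microglial markers 1 rose (C1qb), and of 6 Purkinje cell markers 1 fell (Lhx1). Of 6 interneuron and 6 endothelial markers 0 passed. Over all genes tested, 6.67% passed and 20.4% had an unadjusted limma p under 0.05. The female-specific RNA Xist read 5.79, 6.45 and 12.30 in knockout and 12.27, 12.32 and 5.74 in wild type, so 1 knockout array and 2 wild-type arrays were high. The part of cell types and of sex in the results below was not tested, except where a fit with the choroid plexus markers or with Xist is given.

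Of the 50 measured acetylation genes, 3 rose, 3 fell and 44 did not pass. Sirt5, Hdac1 and Brpf3 were higher in knockout, and Mllt3, Kat7 and Hdac5 were lower. These 6 are 12% of the group. Of all genes tested, 6.67% passed, 2.72% as rises and 3.94% as falls. None of the 50 was dim (mean under the 25th percentile of all values), and with dim genes left out 9.14% of the remaining genes passed. Every change was small: the largest among the 50, that of Hdac1, was 0.36 on the log2 scale or 1.28-fold.

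The median log2 change was -0.02 over the 50 genes and 0.00 over all genes, and the median size of a change was 0.09 in both. The median SD within a group was 0.06 for the 50 genes and 0.10 for all genes. In 18 of the 50 the knockout and wild-type arrays did not overlap, which is 36% beside 25% of all genes, and 16 had an unadjusted limma p under 0.05, which is 32% beside 20.4%. All genes include 4352 dim ones, and the 50 include none. The 91 partner genes described below gave like shares, 37.4% and 30.8%. At an adjusted p under 0.1 the count was 10, which is 20% beside 10.4% of all genes, and at an adjusted p under 0.01 it was 0, with 2.21% of all genes called. For 36 of the 50, all among the 44 that did not pass, the 95% confidence interval of the change lay within 1.2-fold in either direction. The 8 others that did not pass were Hdac4, Hdac9, Hdac10, Sirt1, Brd1, Brd2, Brpf1 and Ing2.

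**Figure D1:**
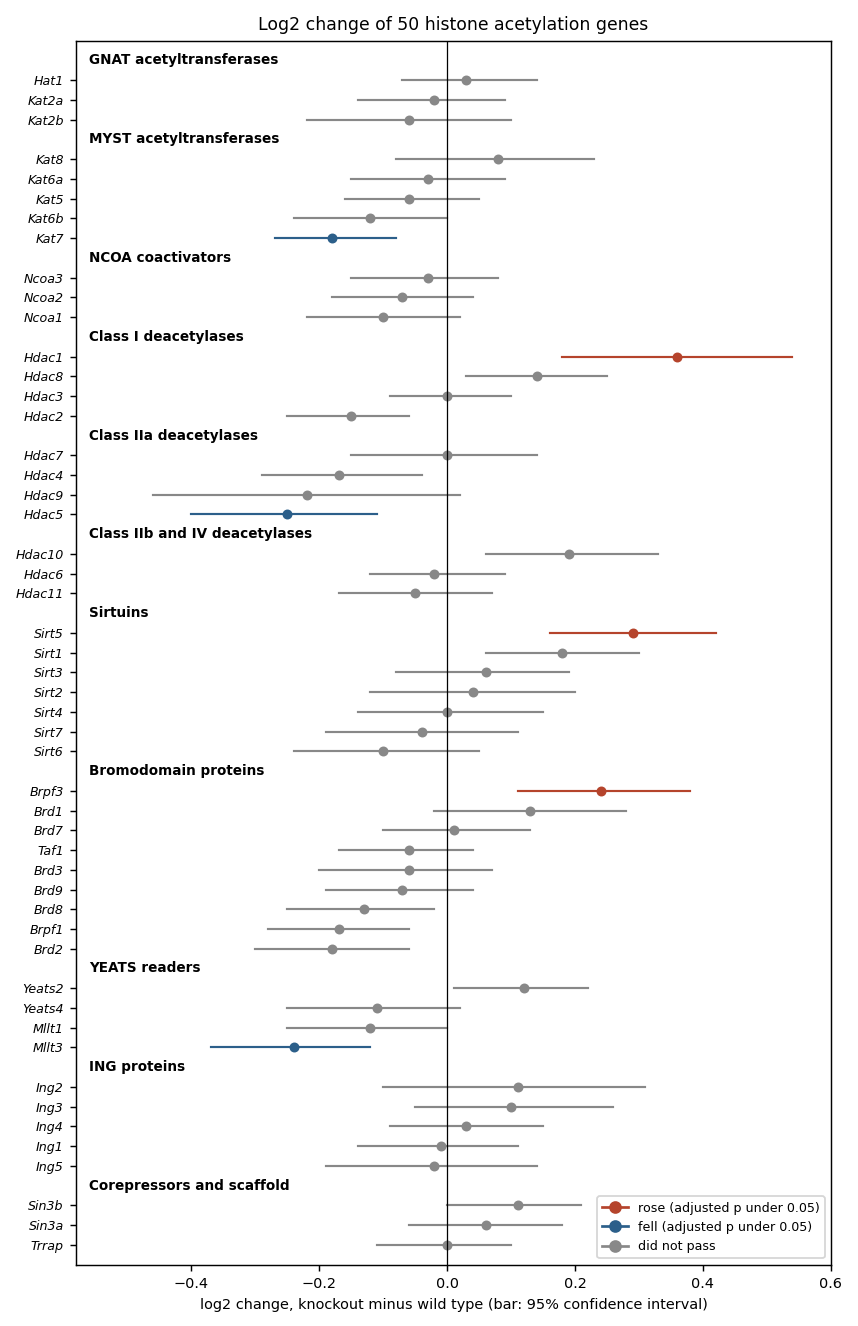
Log2 change (knockout minus wild type, horizontal axis) of the 50 measured histone acetylation genes, grouped by role. Points are limma estimates from 3 knockout and 3 wild-type arrays and bars their 95% confidence intervals; red marks the 3 genes that rose, blue the 3 that fell and grey the 44 that did not pass. Intervals mostly span 0, and the estimates run from -0.25 (Hdac5) to 0.36 (Hdac1).

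CREBBP is recruited by CREB, a factor that binds the cyclic AMP response element. Promoter windows (250 bases before to 50 after a transcript start, RefSeq, GRCm38.p6) were listed for 43 of the 50 measured genes. They were searched for TGACG, the core of that element, on both strands (TGACG or CGTCA). It was found in a window of 20 of these 43 genes (46.5%), and in 23% of 27025 genes with a listed window, measured or not. A gene can have several windows. By window the shares were 39.7% of 63 and 20.8% of 32851. The difference was not tested, and the 2 sets of genes were not matched by expression or by base composition. The full palindrome TGACGTCA was found in 2 of the 43 (4.65%) and in 2.03% of all. Among the 6 genes that passed, 5 had a listed window. Hdac5 and Kat7, which fell, had this core. Mllt3, which also fell, had no such letters in its windows, nor had Sirt5 and Brpf3, which rose. The windows of Hdac5 and Kat7 are shown because they hold these letters, and that of Sirt5 because it had the smallest p. The choice does not stand for fallen and risen genes. Capitals mark TGACG. The windows lie at chr11:102230123-102230422 (minus strand), chr11:95310197-95310496 (minus strand) and chr13:43365285-43365584 (plus strand).
Hdac5: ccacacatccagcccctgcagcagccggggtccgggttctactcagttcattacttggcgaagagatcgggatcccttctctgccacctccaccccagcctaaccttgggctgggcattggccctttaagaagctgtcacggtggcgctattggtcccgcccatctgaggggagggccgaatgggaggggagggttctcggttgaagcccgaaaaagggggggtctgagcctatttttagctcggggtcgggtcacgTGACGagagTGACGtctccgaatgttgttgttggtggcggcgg
Kat7: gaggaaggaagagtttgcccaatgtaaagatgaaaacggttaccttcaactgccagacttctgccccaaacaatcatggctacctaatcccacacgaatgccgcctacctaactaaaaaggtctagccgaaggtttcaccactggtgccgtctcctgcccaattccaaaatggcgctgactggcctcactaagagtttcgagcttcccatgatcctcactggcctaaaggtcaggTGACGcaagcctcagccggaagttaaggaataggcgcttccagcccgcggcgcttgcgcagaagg
Sirt5: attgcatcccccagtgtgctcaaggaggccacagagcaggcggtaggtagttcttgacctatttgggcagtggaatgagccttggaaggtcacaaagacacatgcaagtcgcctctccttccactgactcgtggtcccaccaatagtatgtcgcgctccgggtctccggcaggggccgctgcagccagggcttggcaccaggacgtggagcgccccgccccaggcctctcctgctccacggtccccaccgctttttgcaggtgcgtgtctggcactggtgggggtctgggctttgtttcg
In Hdac5 the core begins 7 and 16 bases past the start, and in Kat7 it begins 15 bases before it. A match of letters is a description and shows no binding.

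Among the acetyltransferases, Kat7 was the one gene of 11 to pass, and it fell. Kat7 (HBO1) is the MYST enzyme that acetylates histone H3 and takes part in the licensing of replication origins. Its values were 10.17, 10.17 and 10.16 in knockout and 10.36, 10.33 and 10.35 in wild type. The arrays of each group lay within 0.03 of each other and the groups did not overlap. The change was -0.18 (SE 0.04; adjusted p = 0.0385 in limma). As a ratio this was 1.13-fold, with 1.06 and 1.21 as the 95% confidence limits. This call was lost when any 1 array was left out, with adjusted p of 0.0999, 0.0843 and 0.0731 without knockout replicate 1, 2 and 3 and of 0.153, 0.0794 and 0.0897 without wild-type replicate 1, 2 and 3, while the change stayed between -0.18 and -0.17. The call was also lost with Xist as a term (0.0759).

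The other MYST enzymes did not pass. Kat6b, a catalytic partner of BRPF1, had values of 9.88, 9.85 and 9.73 in knockout and 9.93, 9.99 and 9.90 in wild type, a change of -0.12 (adjusted p = 0.253), without overlap. Kat5 (TIP60), the enzyme of the NuA4 complex, also lay lower without overlap, at -0.06 (adjusted p = 0.560). Kat6a changed by -0.03 and Kat8 (MOF), which acetylates histone H4, by 0.08. The GNAT enzymes Kat2a and Kat2b, which serve the SAGA and ATAC complexes, changed by -0.02 and -0.06, and Hat1, which acetylates newly made histone H4, by 0.03. A second, dimmer probe set of Hat1 gave 0.04. The nuclear receptor coactivators Ncoa1, Ncoa2 and Ncoa3 changed by -0.10, -0.07 and -0.03. The 95% confidence intervals of these 10 genes lay within -0.24 and 0.23.

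Class I deacetylases are nuclear enzymes, of which HDAC1 and HDAC2 serve the SIN3, NuRD and CoREST complexes. Of the 4 genes 1 rose and 3 did not pass. Hdac1 had values of 11.03, 11.16 and 11.20 in knockout and 10.82, 10.91 and 10.57 in wild type. The groups did not overlap, though wild-type replicate 3 lay well under the other wild-type arrays. Hdac1 rose by 0.36 (SE 0.08; adjusted p = 0.0310 in limma). As a ratio this was 1.28-fold, with 1.13 and 1.46 as the 95% confidence limits. Without wild-type replicate 3 the change was 0.26 (adjusted p = 0.0505), and the call was also lost without knockout replicate 2 (0.0713), knockout replicate 3 (0.0758) or wild-type replicate 1 (0.0882). RefSeq lists a pseudogene of it, Hdac1-ps, and whether the probes match both is not given.

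Its paralogue Hdac2 lay on the other side. Hdac2 had values of 11.21, 11.21 and 11.14 in knockout and 11.31, 11.35 and 11.35 in wild type, without overlap. The change of -0.15 did not pass (SE 0.04, adjusted p = 0.0625, 95% confidence interval -0.25 to -0.06). The difference between the paralogues was noticed in these values and has no test of its own. Hdac8, on the X chromosome, had 9.30, 9.28 and 9.32 in knockout and 9.15, 9.19 and 9.15 in wild type, again without overlap, a change of 0.14 that did not pass (adjusted p = 0.139). Hdac3, the enzyme of the NCoR complex, changed by 0.00 (95% confidence interval -0.09 to 0.10).

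Class IIa deacetylases shuttle out of the nucleus when calcium-dependent kinases phosphorylate them, and repress MEF2 targets when they are in it. Hdac5 had values of 9.17, 9.33 and 9.11 in knockout and 9.47, 9.48 and 9.41 in wild type. The knockout arrays were spread more widely than the wild-type arrays, and all lay below them. Hdac5 fell by 0.25 on the log2 scale (SE 0.06, limma adjusted p = 0.0459). As a ratio this was 1.19-fold, with 1.08 and 1.32 as the 95% confidence limits. The call held without knockout replicate 2 and was lost without knockout replicate 1 (adjusted p = 0.130), knockout replicate 3 (0.107) or wild-type replicate 1 (0.158), 2 (0.137) or 3 (0.0762). The call was also lost with Xist as a term (0.0729). The change of Hdac5 was -0.12 in a fit that left out the 3 arrays whose value of Ttr, a choroid plexus gene, exceeded 10 (knockout replicates 1 and 3, wild-type replicate 1), and -0.16 in a fit with the mean of the choroid plexus markers as a term.

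Hdac4 had values of 10.02, 10.03 and 9.86 in knockout and 10.14, 10.17 and 10.09 in wild type, a change of -0.17 without overlap that did not pass (adjusted p = 0.127). Hdac9 changed by -0.22 with a wide interval of -0.46 to 0.02, since knockout replicate 3 read 8.07 and the other knockout arrays 8.52 and 8.45, against 8.61, 8.48 and 8.62 in wild type. Hdac7 changed by 0.00. In the remaining classes Hdac10, a polyamine deacetylase, had 8.36, 8.45 and 8.42 in knockout and 8.17, 8.19 and 8.28 in wild type, a change of 0.19 (adjusted p = 0.10). The tubulin deacetylase Hdac6 changed by -0.02 and Hdac11 by -0.05, with -0.14 for a second probe set of Hdac11 (adjusted p = 0.469 over all probe sets).

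**Figure D2:**
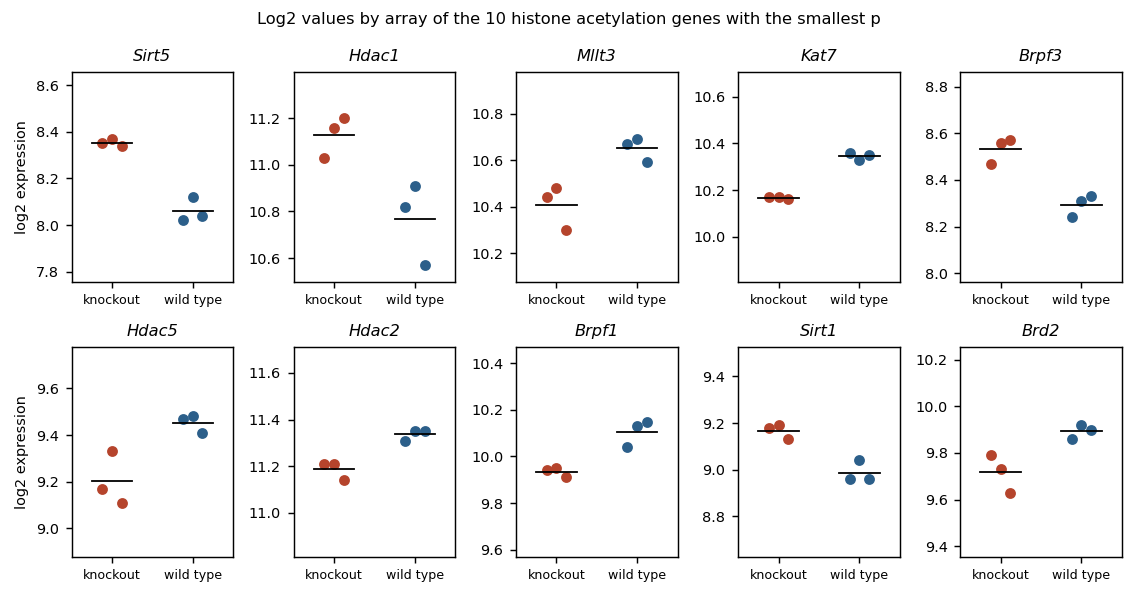
Log2 expression (vertical axis) on each of the 3 knockout arrays (red) and 3 wild-type arrays (blue) for the 10 histone acetylation genes with the smallest p; black lines are group means and each panel spans the same range of log2 units. The groups do not overlap in these 10 genes, which were chosen by p, and in 25% of all genes tested. Hdac1 has 1 low wild-type array at 10.57.

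Of the 7 sirtuins 1 rose and 6 did not pass. Sirt5 is a mitochondrial enzyme that removes succinyl and malonyl groups, so its main substrates are not histones. Its values were 8.35, 8.37 and 8.34 in knockout and 8.02, 8.12 and 8.04 in wild type, well apart. Sirt5 rose by 0.29 (SE 0.06; adjusted p = 0.0201 in limma). As a ratio this was 1.22-fold, with 1.11 and 1.34 as the 95% confidence limits. Its p was the smallest of the 50 genes. The call was lost without knockout replicate 1 (adjusted p = 0.0642), knockout replicate 2 (0.0504), wild-type replicate 1 (0.0904) or wild-type replicate 3 (0.0585), with changes from 0.27 to 0.32 over the 6 fits with 1 array left out.

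Sirt1, the nuclear deacetylase of histones and p53, had values of 9.18, 9.19 and 9.13 in knockout and 8.96, 9.04 and 8.96 in wild type. These too did not overlap, and the change of 0.18 did not pass (adjusted p = 0.0777). Sirt2, a cytoplasmic sirtuin, changed by 0.04, the mitochondrial Sirt3 and Sirt4 by 0.06 and 0.00, and the nuclear Sirt6 and Sirt7 by -0.10 and -0.04. The intervals of these 5 genes lay within -0.24 and 0.20.

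Among 9 bromodomain genes 1 rose and 8 did not pass. Brpf3, a scaffold that joins KAT7 to its histone targets, had values of 8.47, 8.56 and 8.57 in knockout and 8.24, 8.31 and 8.33 in wild type, without overlap. Brpf3 rose by 0.24 (SE 0.06; adjusted p = 0.0445 in limma). As a ratio this was 1.18-fold, with 1.08 and 1.30 as the 95% confidence limits. The call was lost when any 1 array was left out, with adjusted p of 0.0668, 0.108 and 0.102 without knockout replicate 1, 2 and 3 and of 0.168, 0.103 and 0.0768 without wild-type replicate 1, 2 and 3. The related scaffold Brpf1, a partner of KAT6A and KAT6B, read 9.94, 9.95 and 9.91 in knockout and 10.04, 10.13 and 10.15 in wild type. The change of Brpf1, -0.17, had the opposite sign to that of Brpf3 and did not pass (adjusted p = 0.0672).

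Brd2, a BET protein that ties acetylated chromatin to transcription, had values of 9.79, 9.73 and 9.63 in knockout and 9.86, 9.92 and 9.90 in wild type. The groups did not overlap, and the change of -0.18 did not pass (adjusted p = 0.0903). Its relative Brd3 changed by -0.06. Brd8, a subunit of the NuA4 complex, changed by -0.13 without overlap (adjusted p = 0.167), and Brd1, a scaffold for MYST enzymes, by 0.13 (adjusted p = 0.319). Brd7 and Brd9, subunits of BAF-type remodellers, changed by 0.01 and -0.07, and Taf1 of the general factor TFIID by -0.06.

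The YEATS proteins Mllt3 (AF9) and Mllt1 (ENL) bind acetylated histones and bring elongation factors and DOT1L to genes. Mllt3 had values of 10.44, 10.48 and 10.30 in knockout and 10.67, 10.69 and 10.59 in wild type, with all knockout arrays below all wild-type arrays. Mllt3 fell by 0.24 on the log2 scale (SE 0.06, limma adjusted p = 0.0330). As a ratio this was 1.18-fold, with 1.09 and 1.29 as the 95% confidence limits. The call was lost without knockout replicate 1 (adjusted p = 0.0698), knockout replicate 3 (0.0682), wild-type replicate 1 (0.133) or wild-type replicate 2 (0.107), and with Xist as a term (0.0576). The change of Mllt3 was -0.16 without the 3 arrays with Ttr above 10 and -0.18 in the fit with the choroid plexus term.

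Mllt1 changed by -0.12 with overlapping groups (adjusted p = 0.249), and by 0.00 without the arrays with high Ttr. Yeats2, a subunit of the ATAC complex, lay higher without overlap at 0.12 (adjusted p = 0.182), and Yeats4, of the NuA4 complex, changed by -0.11 (adjusted p = 0.342). ING proteins read methylated histone tails through a PHD finger and guide acetyltransferase or deacetylase complexes. None of the 5 passed in limma, and 0 of them had an unadjusted p under 0.05. Ing1 and Ing2, of the SIN3 complex, changed by -0.01 and 0.11, Ing3, of the NuA4 complex, by 0.10, and Ing4 and Ing5, of KAT7 complexes, by 0.03 and -0.02. The scaffolds Sin3a and Sin3b changed by 0.06 and 0.11, with no overlap for Sin3b (adjusted p = 0.223), and Trrap, which holds SAGA and NuA4 to activators, by 0.00.

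Partner subunits and suppliers of acetyl-CoA and NAD were taken from 9 further lists, in which 91 genes were measured. 1 of the 91 rose, 8 fell and 82 did not pass. Crebbp is 1 of the 8. As above, 6.67% of all genes passed, 2.72% as rises and 3.94% as falls. With dim genes left out 9.14% passed. The median change of the 91 was -0.02.

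Of 15 measured NuRD and CoREST genes, which build complexes around HDAC1 and HDAC2, 3 fell and 0 rose. Rcor2, a CoREST subunit, had values of 9.92, 10 and 10.01 in knockout and 10.37, 10.28 and 10.39 in wild type. It fell by 0.37 on the log2 scale (SE 0.05, limma adjusted p = 0.00297), and passed whichever single array was left out, but not without the 3 arrays with Ttr above 10 (change -0.34, adjusted p = 0.157). Its partner Kdm1a (LSD1), a histone demethylase, had 10.82, 10.88 and 10.78 in knockout and 11.07, 11.10 and 11.04 in wild type, and fell by 0.25 (adjusted p = 0.0106). Chd3, a NuRD ATPase, had 10.28, 10.29 and 10.23 in knockout and 10.47, 10.57 and 10.41 in wild type, and fell by 0.22 (adjusted p = 0.0390). The call of Kdm1a did not hold without wild-type replicate 1 (0.0586 as adjusted p). That of Chd3 did not hold without knockout replicate 1, 2 or 3 (0.0950, 0.0662, 0.0875) or wild-type replicate 1 or 2 (0.130, 0.119). Both calls were also lost with a choroid plexus term, at changes of -0.21 (Kdm1a, limma adjusted p = 0.0944) and -0.19 (Chd3, 0.199). The same held when the prior variance did not depend on brightness (0.0744 and 0.132). Without the 3 arrays with Ttr above 10 each changed by -0.20. Another, dimmer probe set of Chd3 also gave -0.22 and did not pass (adjusted p = 0.105 over all probe sets).

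Among 18 other acetyl-lysine readers 2 fell and 0 rose. Dpf3, a subunit of BAF remodellers with a double PHD finger, had 9.28, 9.13 and 9.19 in knockout and 9.63, 9.71 and 9.54 in wild type, and fell by 0.43 (SE 0.06, limma adjusted p = 0.00385). Cecr2, a bromodomain protein of an ISWI remodeller, had 10.16, 10.10 and 10.08 in knockout and 10.41, 10.39 and 10.37 in wild type, and fell by 0.28 (SE 0.05, adjusted p = 0.00711). Both passed with any 1 array left out. Without the 3 arrays with Ttr above 10 they did not pass, with adjusted p of 0.0582 for Dpf3 and 0.229 for Cecr2 at changes of -0.50 and -0.28.

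In the other lists 3 genes besides Crebbp passed. Sap30l, a subunit of the SIN3 complex, had 9.49, 9.57 and 9.39 in knockout and 9.12, 9.22 and 9.20 in wild type, and rose by 0.31 (SE 0.06, limma adjusted p = 0.0170), the 1 rise among 10 measured SIN3 genes. Nmnat2, which makes NAD in axons, had 10.18, 10.31 and 10.16 in knockout and 10.59, 10.60 and 10.46 in wild type, and fell by 0.34 (SE 0.06, adjusted p = 0.00883). Phf20, of the KAT8 complex NSL, had 9.10, 9.10 and 9.0 in knockout and 9.26, 9.28 and 9.25 in wild type, and fell by 0.20 (adjusted p = 0.0499). The call of Sap30l was lost without knockout replicate 1 (adjusted p = 0.0576) or wild-type replicate 1 (0.0867), that of Nmnat2 without wild-type replicate 1 (0.0550), and that of Phf20 when any 1 array was left out (0.0740 to 0.156). Without the 3 arrays with Ttr above 10 the change of Nmnat2 was -0.22. With a choroid plexus term it was -0.28, and the call was lost (limma adjusted p = 0.0769). Of 14 SAGA and ATAC genes, 9 NuA4 genes and 4 NCoR genes, 0 passed in limma, with 1, 4 and 1 at an unadjusted p under 0.05. Over all genes tested, 20.4% had such a p.

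**Figure D3:**
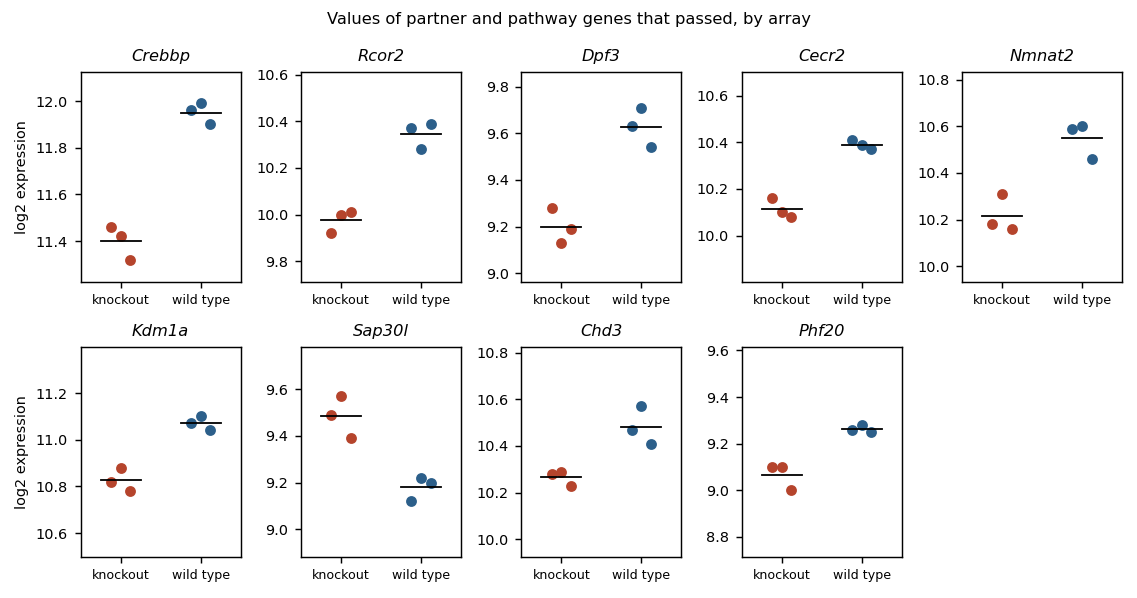
Log2 expression (vertical axis) on each of the 3 knockout arrays (red) and 3 wild-type arrays (blue) for Crebbp and the 8 partner genes that passed; black lines are group means and each panel spans the same range of log2 units. Sap30l lies higher in knockout and the other 8 lie lower. The groups do not overlap in these genes, which were chosen because they passed, and in 25% of all genes tested.

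Each of the 6 calls among the acetylation genes was lost in 4 or more of the 6 fits with 1 array left out. Such fits hold fewer arrays, and over all genes 2.55% to 5.75% passed in them, beside 6.67% as reported. Over 18 other ways of fitting the data with the same threshold, none of the 6 changed sign. For the fits that left arrays out this was fixed in advance, since the groups of all 6 genes did not overlap. Sirt5 passed in 12 of the 18, Hdac1 in 11, Mllt3 in 10, Hdac5 in 8, Kat7 in 7 and Brpf3 in 6. The 18 are not independent checks. Each of the 6 genes has 1 probe set, so the settings on choice of probe set refit the same values. Those on the prior variance and dim genes leave each change as it was. In the fit with the choroid plexus term 0 of the 50 passed in limma, beside 2.52% of all genes, and without the 3 arrays with Ttr above 10, a fit that holds 1 knockout array and 2 wild-type arrays, 0 passed beside 1.06% of all genes. In the fit with the choroid plexus term Sirt5 changed by 0.31, Hdac1 by 0.35, Brpf3 by 0.27 and Kat7 by -0.18. In the fit without those arrays Sirt5 changed by 0.29, Hdac1 by 0.41, Brpf3 by 0.25 and Kat7 by -0.17. With the Xist value as a term 2 of the 50 passed, Hdac1 (change 0.42, limma adjusted p = 0.00741) and Sirt5 (0.29, 0.0401), beside 4.88% of all genes. The other 4 calls were lost in that fit at changes close to those reported, Mllt3 at -0.25 (adjusted p = 0.0576), Hdac5 at -0.26 (0.0729), Kat7 at -0.18 (0.0759) and Brpf3 at 0.24 (0.0798).

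**Figure D4:**
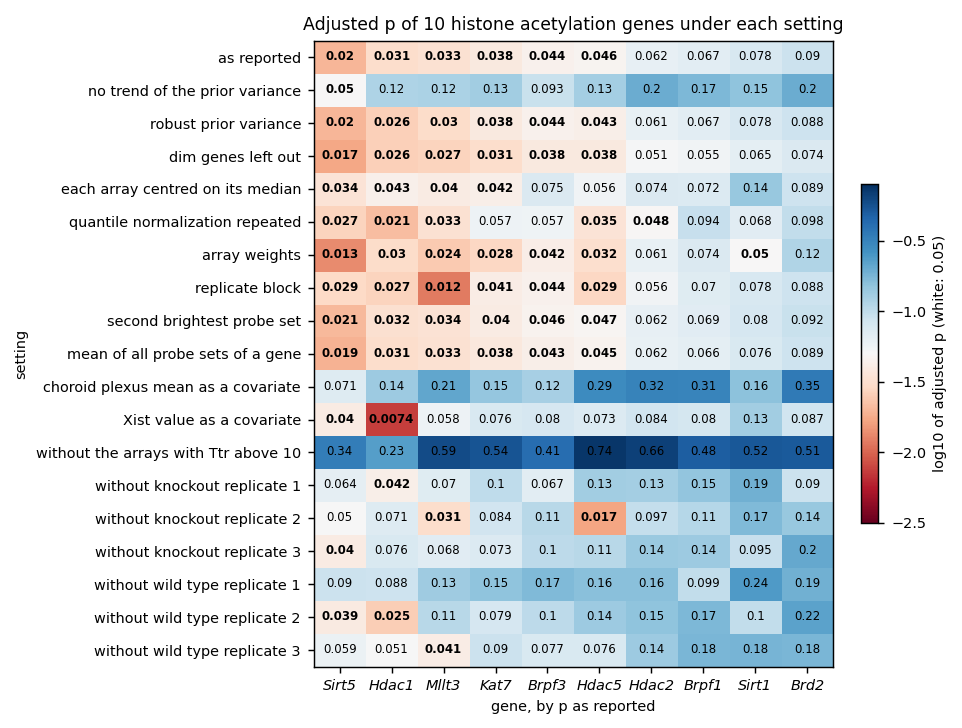
Adjusted p (limma, Benjamini-Hochberg; number in each cell) of the 10 histone acetylation genes with the smallest p (columns) as reported and under 18 other settings (rows). Bold numbers are under 0.05, and cells run from red (low) through white (0.05) to blue (high); the bottom 6 rows leave out 1 array each. Sirt5 is under 0.05 in 12 of the 18 other settings and Brpf3 in 6. Some settings refit the same values, so the rows are not independent.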

How the data were processed

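Whole cerebellum RNA was measured on 6 arrays. The deposited values are log2 expression values per probe set. RMA and oligo are named, without versions, in the submitters' processing notes, and the sources used here give no other step. These deposited log2 values were not altered; their array medians were 7.25 to 7.29. Of 41345 probe sets, GEO's platform annotation gave 1 symbol to 23521, several to 1814 and none to 16010; probe sets with several or none were not named. The probe set with the highest mean was taken per gene, leaving 22180 genes, of which 1082 had several probe sets.

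The comparison was a two-sided test in R 4.3.3 with limma 3.58.1, using lmFit and an eBayes step whose prior variance depends on brightness, with Benjamini-Hochberg adjustment over all 22180 genes. The threshold was an adjusted p of 0.05. The fit was tested on simulated data. Its pass condition required recovery only of shifts larger than any change among the acetylation genes. Passing it therefore does not speak for changes of their size. Smaller shifts were simulated as well, and their recovery is not given here. Promoter sequences are those of RefSeq (GRCm38.p6). Tables and plots were made in Python 3.11.15 with pandas 2.3.3 and matplotlib 3.10.9. Members, role groups and partner lists were chosen with earlier results of these data known. The 1.2-fold limit set against confidence intervals was chosen after the values were seen. Named genes are Crebbp, the members, and partner genes that passed, or the 4 with the smallest p where more than 4 of a list did, with cell type markers that bear on a result. Ep300 and Xist were named besides, after their values were seen. 20 alternatives were run, covering the prior variance, dim genes, normalization, array weights, replicate block, choice of probe set, threshold, choroid plexus and Xist covariates, and arrays left out. No label gives separate animals, and the p-values measure the spread among these arrays alone. Xist was high on some arrays and low on others within each group, so the arrays of a group were not all repeats of 1 RNA sample. The number of arrays limits the precision.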

Additional observations from a re-analysis of the deposited data

How the results depend on the processing

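With 3 arrays a group the typical standard error of a change was 0.06 on the log2 scale for the 50 acetylation genes, beside a median size of change of 0.09. As reported, 3 rose and 3 fell. The number that rose was 1 with no trend of the prior variance, 0 at an adjusted p under 0.01, 0 with a choroid plexus term, 0 without the arrays with Ttr above 10, and 0 to 2 with 1 array left out. The number that fell was 0 with no trend, 0 at an adjusted p under 0.01, 6 at an adjusted p under 0.1, 0 with a choroid plexus term, 0 with an Xist term, 0 without the arrays with high Ttr, and 0 to 2 with 1 array left out. The other alternatives gave counts within 1.5 times those reported, and the median change of the 50 genes ran from -0.04 to 0.00. Over all genes, as reported, 604 rose and 875 fell; the counts were 184 and 310 with no trend, 260 and 299 with a choroid plexus term, 112 and 124 without the arrays with high Ttr, 317 and 528 with knockout replicate 1 left out, 199 and 366 with wild-type replicate 1 left out, and 309 and 462 with wild-type replicate 2 left out. With the replicate number as a block, 3 acetylation genes rose and 3 fell. Same-numbered arrays of the groups did not deviate together (correlations of 0.01, 0.03 and -0.13), so the numbers were not taken to pair samples. Results of single genes were followed for the 50 acetylation genes and the 9 partner genes that passed, Crebbp among them. Among 1180 such results under the 20 alternatives, changed thresholds included, 1071 kept their side of the threshold, 103 lost their call, 6 gained one and 0 changed sign while called. The 44 acetylation genes that did not pass as reported had no call to lose, so the 103 all fall on the called genes. Probe sets carry no measure of signal over background, so dim genes have no detection call, and none of the 50 lay under the 25th percentile of all values. Groups of 3 are too small for a search for outlying arrays.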
